A study of Mus musculus with 16 samples.

Results

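The nuclear genes of mitochondrial respiratory complexes II to V were followed in mouse brain in 2 mutant models and their wild types. Members were all gene symbols of the count tables that begin with Sdha, Sdhb, Sdhc, Sdhd, Uqcr, Atp5 or Cox4 to Cox8, together with Cyc1 and Cycs, and without 3 pseudogene symbols whose names contain -ps. The rule gave 51 of the 43472 symbols: 6 of complex II, 9 of complex III, 1 for the soluble carrier cytochrome c, 18 of complex IV and 17 of complex V. It took in 4 symbols whose products are not subunits, namely the complex II assembly factors Sdhaf1 and Sdhaf2, and Atp5s and Atp5sl. Atp5s and Atp5sl were counted with complex V by symbol alone, and RefSeq names them Dmac2l and Dmac2. RNA came from 16 brain libraries in 4 groups of 4. Prepl knockout mice lack the prolyl endopeptidase-like enzyme, which is missing in people with Congenital Myasthenic Syndrome-22, and had wild types (WT) of their own. In PWS-IC deleted mice the imprinting centre that keeps Prader-Willi genes active on the paternal chromosome is gone, and these had a separate set of WT. The study asked whether the models share molecular changes. Strain, age and brain region are not given in the labels used here.

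Complex II, succinate dehydrogenase, passes electrons from succinate to ubiquinone and is encoded wholly in the nucleus. Complex III passes them on to cytochrome c, complex IV hands them from cytochrome c to oxygen, and complex V, the ATP synthase, uses the resulting proton gradient to make ATP. Complexes III, IV and V combine nuclear subunits with subunits made inside the mitochondrion from its own DNA. Neurons draw most of their ATP from this chain. Several complex IV subunits have a second, tissue-restricted isoform that is used in heart and skeletal muscle, lung or testis.

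Each library held 3477624 to 5852716 reads in genes, of which 36971 to 63927 fell on the 51 members. Levels are given as CPM, counts scaled to the reads in genes of each library, with the SD over 4 libraries. Because QuantSeq reads the 3′ ends of transcripts, a count does not grow with transcript length. Levels of different genes can be set side by side only with limits, among them that the annotation and strand setting are not stated. Of the 51 members 17 have a near-identical copy of their 3′ end elsewhere. How many of their reads went to a copy or stayed uncounted was not tested. The targeted genes followed the labels: Prepl went from 34.8 ± 1.35 to 1.64 ± 0.453 CPM in the knockouts, and Ndn, a paternally expressed gene of the Prader-Willi region, from 556 ± 11.1 to 4.30 ± 1.90 CPM in the deleted mice. Summed markers of neurons (Rbfox3, Snap25, Syt1 and Map2) stood at 2563 to 2837 CPM in the Prepl WT and 2434 to 2518 CPM in the knockouts, without overlap. They stood at 2402 to 2617 CPM in the PWS-IC WT and 2344 to 2446 CPM in the deleted mice. Markers of skeletal or heart muscle summed to between 9.14 and 22.1 CPM, mostly from Acta1. Xist and Y-linked reads showed 3 females and 1 male (replicate 4) among the Prepl WT, 4 males among the Prepl knockouts, and 2 males and 2 females in each PWS-IC group. Reads aligned outside genes made up 12.3% ± 1.027 of the tabled reads in the PWS-IC WT and 19.1% ± 1.145 in the deleted group (p = 0.0286 by a two-sided exact permutation test, n = 4 per group, which is the smallest value 4 against 4 can give). The Prepl groups stood at 17.0% ± 1.76 and 17.7% ± 1.24 (p = 0.6 by the same exact permutation test, n = 4 per group). Whether replicates were separate animals is not stated in the labels, and p-values reflect only how these libraries vary. In bulk tissue, fewer cells of a type and less RNA per cell cannot be told apart.

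Together the 51 genes made up 9695 ± 736 CPM in the Prepl WT, 9448 ± 371 in the Prepl knockouts, 10985 ± 160 in the PWS-IC WT and 10937 ± 634 in the PWS-IC deleted mice. Complex V had the highest sum, from 3675 CPM in Prepl WT replicate 1 to 5262 CPM in PWS-IC deleted replicate 2. Complex IV followed at 3121 to 4053 CPM in the same 2 libraries, complex III at 1339 to 1831 CPM and complex II at 463 to 705 CPM. Prepl WT replicate 1 was thus the lowest of the 16 libraries for all 4 complexes, and PWS-IC deleted replicate 2 the highest. Within each model the groups overlapped for every complex. Complex II summed to 542 ± 55.7 and 537 ± 32.3 CPM in the Prepl WT and knockouts and to 627 ± 11.4 and 660.3 ± 36.1 CPM in the PWS-IC WT and deleted mice. In the same order complex III summed to 1483 ± 102, 1424 ± 20.6, 1731 ± 23.0 and 1676 ± 105 CPM. Complex IV summed to 3419 ± 218, 3359 ± 137, 3826 ± 70.5 and 3706 ± 240.1 CPM. Complex V, the largest, summed to 4221 ± 367, 4102 ± 183, 4774 ± 140 and 4867 ± 278 CPM. The WT groups of the models thus stood further apart in the mean than either mutant and its own WT, for each of the 4 complexes.

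Over all 16 libraries the member with the most reads in each complex was the iron-sulfur subunit Sdhb in complex II, the hinge subunit Uqcrh in complex III, Cox6c in complex IV and Atp5g3 in complex V. Sdhb stood at 232 ± 26.7, 239.6 ± 22.1, 269 ± 18.2 and 297 ± 20.04 CPM in the Prepl WT, Prepl knockouts, PWS-IC WT and PWS-IC deleted mice. In the same order Cox6c, a small membrane subunit, stood at 476 ± 27.2, 482 ± 30.8, 567 ± 58.9 and 579 ± 52.5 CPM. Cox6c led complex IV through the PWS-IC groups, since Cox6a1 was above it in the Prepl WT (539 ± 32.9 CPM) and knockouts (536 ± 32.3 CPM). Atp5g3 is one of 3 genes for subunit c, whose copies form the rotating ring of the ATP synthase and whose mature protein is the same from each gene. It supplied 92.6% ± 0.584, 92.1% ± 0.547, 94.0% ± 0.159 and 94.8% ± 0.452 of the reads of the 3 genes, with Atp5g1 and Atp5g2 sharing the rest. Atp5g1 and Atp5g2 have near-identical copies of their 3′ ends and Atp5g3 does not, and the effect of this on the shares was not tested. Cycs, the soluble electron carrier, was low beside the complexes it connects, at 30.05 ± 3.86, 26.7 ± 2.71, 27.2 ± 4.62 and 29.0 ± 1.56 CPM.

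The brain libraries carried the general isoforms of complex IV and few reads of the tissue-restricted ones. Cox4i2, an isoform best known from lung, gave at most 0.247% of the reads of the pair Cox4i1 and Cox4i2. The muscle isoforms Cox6a2 and Cox7a1 gave at most 0.862% and 0.740% of the reads of their pairs with Cox6a1 and Cox7a2. Of the testis isoforms, Cox7b2 gave at most 0.414% beside Cox7b, and Cox6b2 was the most abundant of all the restricted isoforms, with 0.721% to 3.44% beside Cox6b1. Cox8b, another muscle isoform, had 16 reads in PWS-IC WT replicate 1 (2.73 CPM) and 0 reads in the other 15 libraries. The muscle markers Acta1, Tnnt2, Mb, Myh6 and Ckm had 79, 5, 4, 2 and 1 reads in that library, beside 91, 4, 2, 3 and 0 in PWS-IC WT replicate 2. Cox8c had 0 reads in all 16 libraries, which allows a level of up to 0.0367 CPM over all of them (3 reads, counting error only).

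In the Prepl knockout no nuclear gene of complexes II to V passed the test against its WT. Of the 51 members 47 had enough reads to be tested, and 0 had a Benjamini-Hochberg adjusted p under 0.05 by edgeR's quasi-likelihood test, with 1 at an unadjusted p under 0.05. DESeq2 and limma voom also called 0. In this comparison 0.262% of all 13722 genes tested were called, 0.189% higher and 0.0729% lower, and 9.43% had an unadjusted p under 0.05, against 2.13% of the members. The members lay on both sides of 0, with 23 above and 24 below, a median log2 fold change of -0.00 against 0.00 over all genes tested, and single values from -0.15 to 0.39. For 43 of the 47 genes the 95% interval of the change lay within a 1.5-fold difference in either direction. Expression in 2 of the 47, or 4.26%, did not overlap between the groups, against 5.69% of all genes tested. Of the cell type markers, 0 of 4 neuronal ones were called, although their sums did not overlap. Among 5 blood markers 1 was called lower, with sums of 659.9 to 1145 CPM in the WT and 628 to 833 CPM in the knockouts. The part of these cell types in the levels of the respiratory genes was not tested.

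All knockouts were male and 3 of 4 WT were female. With sex as a term, which leaves 1 male WT library to set against the male knockouts, 6 of 47 members lay above 0 and their median was -0.07, while 0 were called. In a fit of all 16 libraries with a sex term 10 of 47 lay above 0 with a median of -0.06, and again 0 were called. Without Prepl WT replicate 1, the library with the lowest sums, 14 of 47 lay above 0 with a median of -0.05. Without Prepl knockout replicate 4 the number was 18 of 47, with a median of -0.02. Other fits moved the split upward. There were 30 of 47 above 0 (median 0.03) when the fit allowed for reads outside genes. There were 29 (0.02) without Prepl WT replicate 4, and 28 (0.02) without Prepl knockout replicate 1. The split around 0 thus moved in both directions with the terms of the fit and the libraries kept. The cause of these shifts was not tested.

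The gene with an unadjusted p under 0.05 was Atp5g2, the one of the 3 genes for subunit c with the fewest counted reads. Its level was 19.0, 19.8, 19.1 and 22.1 CPM in the Prepl WT and 22.6, 25.6, 27.1 and 27.2 CPM in the knockouts. The groups did not overlap, although the highest WT and the lowest knockout were close. The log2 fold change was 0.39 ± 0.124 (SE; Benjamini-Hochberg adjusted p = 0.250 by edgeR's quasi-likelihood test). The 3′ end of Atp5g2 is identical over 300 bases to the pseudogenes Gm10175 and Gm10231. Summed with them, it stood at 27.2, 26.4, 29.5 and 30.5 CPM in the WT and 28.8, 36.3, 32.8 and 34.3 CPM in the knockouts, where the groups overlapped. Cox8a, a small membrane subunit of complex IV, was the other member without overlap, at 308 to 322 CPM in the WT and 268 to 306 CPM in the knockouts, with a log2 fold change of -0.08 ± 0.0643.

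By complex, the changes in the knockout were as follows. The flavin subunit Sdha, Sdhb and the membrane anchors Sdhc and Sdhd differed by 0.04 ± 0.0758, 0.08 ± 0.0805, -0.10 ± 0.0931 and -0.04 ± 0.147 on the log2 scale. In complex III the Rieske iron-sulfur protein Uqcrfs1 differed by -0.02 ± 0.0701 and cytochrome c1, Cyc1, by -0.12 ± 0.0772. Both are redox subunits that move the electrons. Cycs differed by -0.14 ± 0.121 and Cox6c by 0.06 ± 0.0669. The catalytic subunits of the ATP synthase, Atp5a1 and Atp5b, differed by 0.03 ± 0.0653 and -0.07 ± 0.0645, and Atp5g3 by -0.06 ± 0.0762. Cox7a2l (chromosome 17, 83501918 to 83517330, GRCm38), which helps to join complexes III and IV, is the member nearest to Prepl, 1546140 bases away, and differed by -0.01 ± 0.104.

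**Figure D1:**
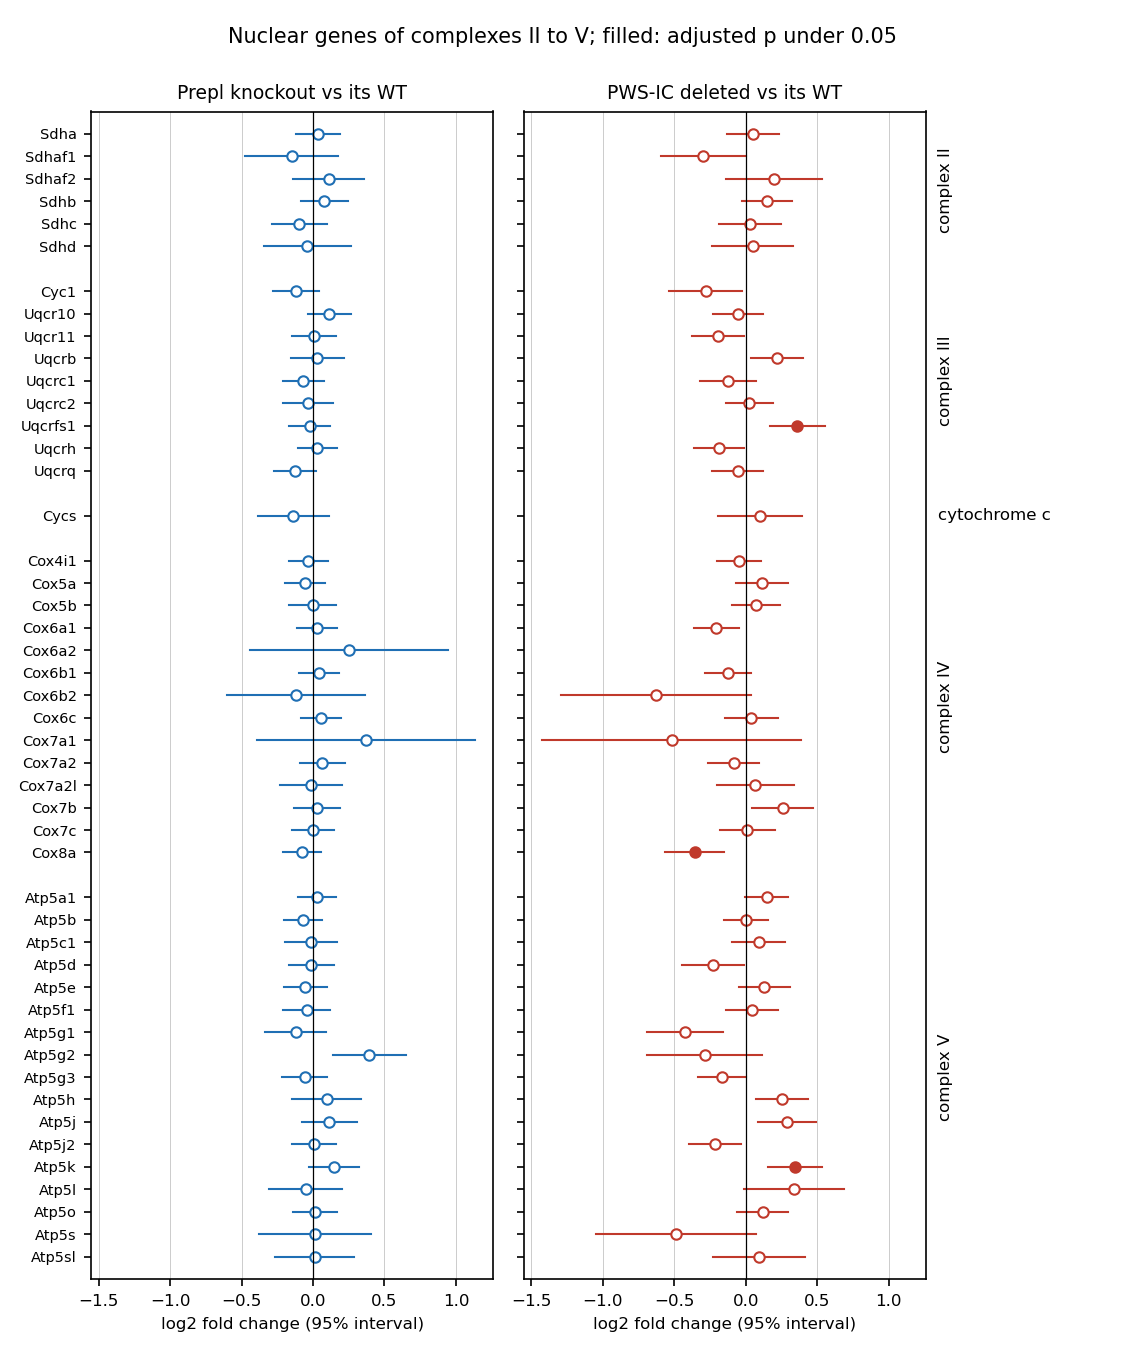
Log2 fold change of each tested member in the Prepl knockouts (left) and the PWS-IC deleted mice (right) against their own WT, 4 libraries per group, with 95% intervals, ordered by complex; filled points have an adjusted p under 0.05 by edgeR's quasi-likelihood test. No point is filled for the Prepl knockout, and Uqcrfs1, Cox8a and Atp5k are filled for the PWS-IC deletion.

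In the PWS-IC deleted brain 3 members passed the test, each from a different complex. Uqcrfs1 of complex III and Atp5k of complex V rose, by 0.36 and 0.34 on the log2 scale, and Cox8a of complex IV fell by 0.36. That was 3 of 46 members tested, or 6.52%, where 4.52% of all 13636 genes tested were called by edgeR's quasi-likelihood test, 2.96% higher and 1.55% lower. The share of called members is near that background. Members with an unadjusted p under 0.05 numbered 16, or 34.8%, against 18.2% of all genes, with 6 higher and 10 lower. For 8 members, or 17.4%, the groups did not overlap, against 11.8% of all genes. The median over the 46 members was 0.03, beside -0.01 over all genes, and 25 lay above 0. For 39 of them the 95% interval lay within a 1.5-fold difference.

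Uqcrfs1 (chromosome 13, 30540308 to 30545362, GRCm38) encodes the Rieske protein, the iron-sulfur subunit that takes electrons from ubiquinol in complex III. It stood at 164, 180.4, 155 and 163 CPM in the 4 WT and at 231, 223, 194 and 199 CPM in the 4 deleted libraries. Every deleted library was above every WT library. The log2 fold change was 0.36 ± 0.0913 (SE; Benjamini-Hochberg adjusted p = 0.0267 by edgeR's quasi-likelihood test), with a 95% interval of 0.17 to 0.55. In the Prepl groups, Uqcrfs1 ranged over 150.3 to 172 CPM in the WT and 151 to 169.7 CPM in the knockouts.

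Atp5k (chromosome 5, 108433244 to 108434448) encodes subunit e, a small membrane protein at the interface of ATP synthase dimers. Its WT levels were 476, 456, 418 and 458 CPM and its levels in the deleted libraries 590.4, 648, 503 and 538 CPM. The groups did not overlap, and the deleted libraries were spread more widely than the WT. The log2 fold change was 0.34 ± 0.0907 (Benjamini-Hochberg adjusted p = 0.0351 by edgeR's quasi-likelihood test), with a 95% interval of 0.15 to 0.53. The pseudogene Atp5k-ps2 on chromosome 2 matches the 3′ end of Atp5k at 95.7% over 210 bases. It is not among the counted symbols, so no sum with it could be made.

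Cox8a (chromosome 19, 7215153 to 7217616) encodes a small membrane subunit of cytochrome c oxidase. It stood at 290.0, 411, 332 and 340.2 CPM in the WT and at 248, 290.4, 259.9 and 268 CPM in the deleted libraries. WT replicate 2 was the highest, and the groups overlapped narrowly, since WT replicate 1 lay just below deleted replicate 2. The log2 fold change was -0.36 ± 0.0999 (Benjamini-Hochberg adjusted p = 0.0448 by edgeR's quasi-likelihood test), with a 95% interval of -0.57 to -0.15.

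**Figure D2:**
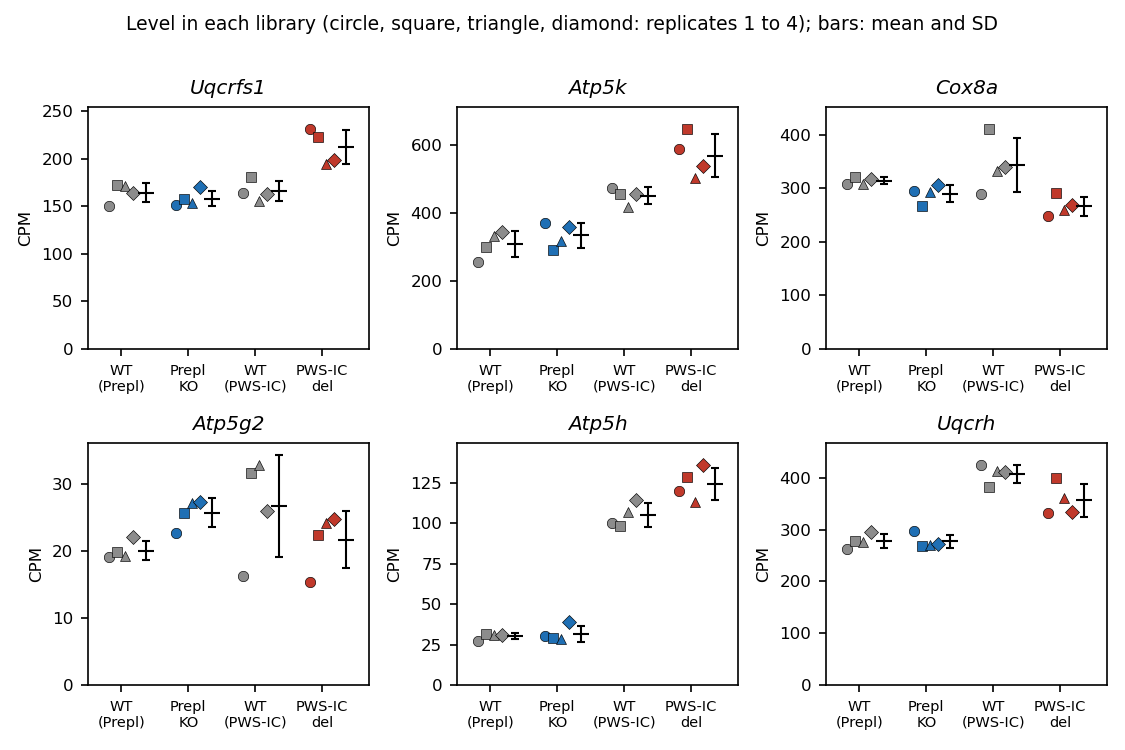
Level in CPM of 6 members in each of the 16 libraries, with symbols for replicates 1 to 4 and bars for the mean and SD (n = 4). Uqcrfs1 and Atp5k are higher in all PWS-IC deleted libraries than in their WT, Cox8a is lower in the mean with a narrow overlap, and Atp5h and Uqcrh separate the WT groups of the 2 models.

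These calls were not firm against leaving out single libraries, as edgeR's quasi-likelihood test run on 7 libraries showed. Uqcrfs1 lost its call without WT replicate 1, 3 or 4 or deleted replicate 1 or 2, with adjusted p-values of 0.0555, 0.102, 0.0808, 0.103 and 0.0690 and log2 fold changes of 0.31 to 0.36. Atp5k lost it without WT replicate 3 or 4 or deleted replicate 1 or 2 (adjusted p of 0.122, 0.0826, 0.107 and 0.105 at 0.27 to 0.34). Cox8a lost it without WT replicate 2, 3 or 4 or deleted replicate 1, 3 or 4 (adjusted p of 0.105, 0.0675, 0.0868, 0.128, 0.119 and 0.0875 at -0.38 to -0.25). None of the 3 changed sign. The share of reads outside genes separated the same groups completely. With it as a covariate 0 members were called, where 4 of all 13636 genes tested were. Uqcrfs1 and Atp5k were then at 0.51 and 0.61, and Cox8a was at 0.41, the opposite sign. That share and the deletion cannot be told apart.

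Blood markers were lower in the deleted libraries, with 4 of 5 called by edgeR's quasi-likelihood test and sums of 1203 to 1629 CPM against 1796 to 3970 CPM in the WT. Meningeal fibroblast markers were lower for 5 of 5 (291 to 314 CPM against 377 to 630.1 CPM), as were 1 of 3 tested choroid plexus markers (340.2 to 1628 CPM against 1313 to 2083 CPM) and 1 of 3 tested microglial markers (28.2 to 47.8 CPM against 35.02 to 57.1 CPM). Over all genes tested 1.55% were called lower. None of the 4 neuronal or 4 astrocyte markers was called, and no marker of these lists was at 0 in all libraries of a group. The part of these cell types in the changes of the respiratory genes was not tested.

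The start regions of the 3 called genes are shown because they differ in the sequence motifs that recur in promoters of respiratory genes. Each sequence is from RefSeq on GRCm38.p6 and runs from 250 bases before to 30 bases after the annotated start, written in the direction of the gene. Capitals mark matches, on either strand, to TTCCGG (bound by ETS factors such as GABP, also called NRF2), the 10-base palindrome bound by NRF1 (seen in Atp5k), TGACGTCA (a cyclic AMP response element) or AAGATGGC (bound by YY1).
Uqcrfs1, chr13:30545287-30545566, minus strand: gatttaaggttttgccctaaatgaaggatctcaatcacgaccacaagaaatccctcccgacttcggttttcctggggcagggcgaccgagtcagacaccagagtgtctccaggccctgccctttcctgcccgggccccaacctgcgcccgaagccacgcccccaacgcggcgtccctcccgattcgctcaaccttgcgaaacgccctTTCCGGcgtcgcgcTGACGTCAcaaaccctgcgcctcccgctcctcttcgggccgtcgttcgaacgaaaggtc
Atp5k, chr5:108434370-108434649, minus strand: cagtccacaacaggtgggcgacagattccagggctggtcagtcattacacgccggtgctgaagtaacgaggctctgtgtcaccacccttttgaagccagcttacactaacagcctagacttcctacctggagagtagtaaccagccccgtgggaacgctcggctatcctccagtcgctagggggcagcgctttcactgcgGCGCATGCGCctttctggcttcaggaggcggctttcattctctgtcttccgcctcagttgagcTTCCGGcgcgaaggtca
Cox8a, chr19:7217587-7217866, minus strand: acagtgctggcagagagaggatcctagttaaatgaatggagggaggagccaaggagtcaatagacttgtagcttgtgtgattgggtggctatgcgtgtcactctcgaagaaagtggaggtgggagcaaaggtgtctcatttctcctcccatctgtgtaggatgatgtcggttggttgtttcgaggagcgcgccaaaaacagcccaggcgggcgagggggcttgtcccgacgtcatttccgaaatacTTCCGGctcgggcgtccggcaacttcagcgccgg

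All 3 regions held TTCCGG, Uqcrfs1 also held TGACGTCA and Atp5k also held the NRF1 palindrome. In the full window of 300 bases Cox8a had 3 matches to TTCCGG, those not in capitals lying at least partly beyond the printed bases. Promoters were found for 40 of the 51 members, as 44 windows. TTCCGG was in 43.2% of these windows and in 14.9% of all 32851 promoter windows of the same length. The NRF1 palindrome was in 9.09% against 0.971%, TGACGTCA in 4.55% against 1.79%, and AAGATGGC in 11.4% against 2.75%. None of these motifs contains another. A match describes the sequence and is no evidence of binding in these libraries.

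In complex II no subunit passed the test in the PWS-IC deleted mice. Sdha, Sdhb, Sdhc and Sdhd differed by 0.05 ± 0.0864, 0.15 ± 0.0840, 0.03 ± 0.102 and 0.05 ± 0.136 on the log2 scale. The assembly factor Sdhaf1, which helps to place the iron-sulfur clusters of Sdhb, stood at 22.2, 23.5, 28.2 and 29.9 CPM in the WT and 18.0, 21.7, 22.1 and 22.1 CPM in the deleted libraries. The groups were separate by a small margin, and the log2 fold change was -0.30 ± 0.142 (unadjusted p = 0.0495 and adjusted p = 0.273 by edgeR's quasi-likelihood test).

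In complex III only Uqcrfs1 of the 9 members passed the test. Beside it, the ubiquinone-binding subunit Uqcrb was at 0.22 ± 0.0881, without overlap between the groups. The redox subunit Cyc1 was at -0.28 ± 0.122, the hinge subunit Uqcrh at -0.19 ± 0.0825 and the small subunit Uqcr11 at -0.19 ± 0.0877. These 4 had unadjusted p-values of 0.0220 to 0.0390 and adjusted p-values of 0.180 to 0.242 by edgeR's quasi-likelihood test, so they did not pass. Cyc1 stood at 91.8, 114, 100.5 and 96.9 CPM in the WT and 84.9, 98.5, 60.4 and 85.1 CPM in the deleted libraries, with deleted replicate 3 far below the others. The core proteins Uqcrc1 and Uqcrc2 differed by -0.12 ± 0.0949 and 0.03 ± 0.0788. Cycs, which carries the electrons on, differed by 0.10 ± 0.140.

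In complex IV, Cox6a1 and Cox7b had unadjusted p-values under 0.05 beside Cox8a. The regulatory subunit Cox6a1 stood at 526, 517, 496 and 510.4 CPM in the WT and 415, 453, 463 and 440.7 CPM in the deleted libraries. Every deleted library was lower than every WT, and the log2 fold change was -0.20 ± 0.0748 (Benjamini-Hochberg adjusted p = 0.136 by edgeR's quasi-likelihood test; DESeq2 gave an adjusted p of 0.0482). The X-linked Cox7b was at 0.26 ± 0.103 (adjusted p = 0.176, edgeR's quasi-likelihood test), with groups that overlapped. Cox4i1, the largest nuclear subunit, and Cox6c differed by -0.04 ± 0.0743 and 0.04 ± 0.0891. The restricted isoforms gave wide errors, with Cox6b2 at -0.63 ± 0.319 and Cox7a1 at -0.52 ± 0.433. Cox4i2, Cox7b2, Cox8b and Cox8c had too few reads to be tested in either model, and Cox6a2 too few in the PWS-IC comparison.

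In complex V the subunit c genes were all below 0 and the peripheral stalk genes all above 0, without any of these 7 passing the test. Atp5g1 stood at 42.9, 38.6, 33.1 and 39.2 CPM in the WT and 27.7, 31.9, 27.3 and 27.3 CPM in the deleted libraries. The groups did not overlap, and the log2 fold change was -0.42 ± 0.126 (Benjamini-Hochberg adjusted p = 0.0601 by edgeR's quasi-likelihood test). It was called without the filter on low counts (adjusted p = 0.0379), with sex as a term (0.0222), with the replicate number as a block (0.0337), in the 16-library fit without (0.0252) and with (0.0168) a sex term, and without WT replicate 3 (0.0437), by edgeR's quasi-likelihood test in each case. It was not called with RLE factors (0.0621), by DESeq2 (0.0678), by limma voom (0.0722), with the covariate for reads outside genes (0.999), or in the other 7 fits that leave out a library (0.0584 to 0.168). Of all 13636 genes tested, 1119 were called with sex as a term and 989 with the block, against 616 in the main fit. The pseudogene Gm10039 matches the 3′ end of Atp5g1 at 99.5% over 186 bases. With it the sum was 42.6 to 49.9 CPM in the WT and 31.9 to 38.3 CPM in the deleted libraries, again without overlap. Atp5g3 was at -0.17 ± 0.0804 and Atp5g2 at -0.29 ± 0.192.

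The peripheral stalk, which holds the catalytic head still while the ring turns, is built from Atp5f1, Atp5h, Atp5j and Atp5o. Atp5j was at 0.29 ± 0.0960 and Atp5h at 0.26 ± 0.0875, with adjusted p-values of 0.0948 and 0.106 by edgeR's quasi-likelihood test. Atp5o was at 0.12 ± 0.0850 and Atp5f1 at 0.04 ± 0.0883. Of the membrane subunits beside Atp5k, subunit f, Atp5j2, was at -0.22 ± 0.0871 (adjusted p = 0.179, edgeR's quasi-likelihood test) and subunit g, Atp5l, at 0.34 ± 0.168 (adjusted p = 0.294). In the catalytic head Atp5d, the delta subunit, was at -0.23 ± 0.105 (adjusted p = 0.253, edgeR's quasi-likelihood test). Atp5a1 was at 0.15 ± 0.0731, its WT libraries spanning 655 to 715 CPM and its deleted libraries 724 to 792 CPM, and Atp5b was at -0.00 ± 0.0735. Sdhaf1, Atp5g1, Atp5a1, Uqcr11, Uqcrb and Cox6a1 were the members without overlap that were not called.

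The nuclear genes were also set beside the subunits that the mitochondrion encodes for the same complexes: mt-Cytb in complex III, mt-Co1, mt-Co2 and mt-Co3 in complex IV, and mt-Atp6 and mt-Atp8 in complex V. By edgeR's quasi-likelihood test 4 of these 6 were called higher in the Prepl knockouts (all but mt-Co1 and mt-Atp8), where 0.189% of all 13722 genes tested were. In the PWS-IC deleted mice 5 of 6 were called lower (all but mt-Co2), where 1.55% of all 13636 genes tested were. The reads of the mitochondrially encoded subunits were divided by those of the nuclear members of the complex in each library. For complex III this ratio was 5.62, 5.15, 5.66 and 5.37 in the Prepl WT and 8.20, 9.09, 8.92 and 10.5 in the knockouts, 1.69 times higher in the mean. It was 4.14, 5.04, 4.66 and 5.06 in the PWS-IC WT and 3.62, 3.50, 3.89 and 4.03 in the deleted mice, 0.796 times the WT mean. The groups of each model did not overlap. The difference between the models was called for all 6 mitochondrially encoded genes by edgeR's quasi-likelihood test, where 0.778% of all 14392 genes tested were. It ran from -1.18 ± 0.161 for mt-Atp8 to -0.61 ± 0.107 for mt-Co2 (PWS-IC deletion minus Prepl knockout).

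For complex IV the mean ratio went from 2.45 ± 0.158 to 3.12 ± 0.220 in the Prepl model and from 2.91 ± 0.186 to 2.50 ± 0.0448 in the PWS-IC model. For complex V it went from 1.05 ± 0.0646 to 1.46 ± 0.177 and from 1.24 ± 0.0661 to 0.881 ± 0.0354. Neither complex had overlapping groups in either model. The nuclear sums of the same complexes overlapped in every case. In the PWS-IC model the ratio moved with the share of reads outside genes, and the part of that share in the ratio was not tested. In the Prepl model all knockouts were male and most WT were female, and the part of sex in the ratio was not tested.

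**Figure D3:**
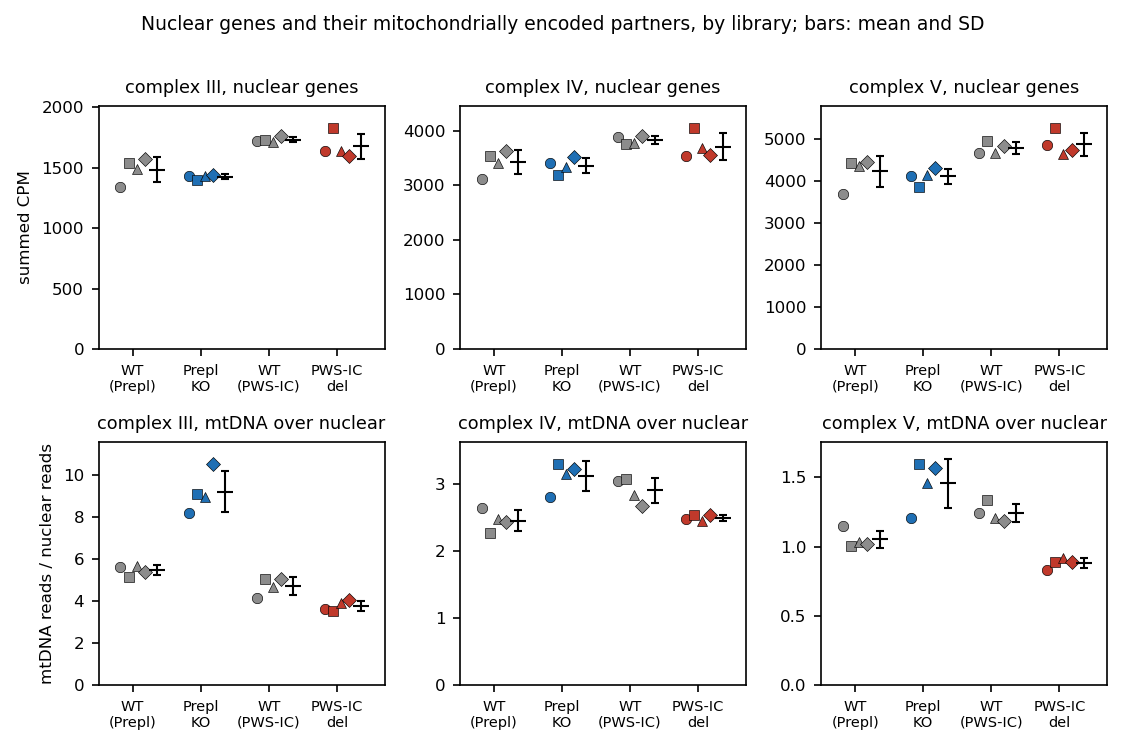
Summed level of the nuclear members of complexes III, IV and V in CPM (top) and the ratio of reads of the mitochondrially encoded subunits to those of the nuclear members (bottom) in each library, with the mean and SD (n = 4). The nuclear sums overlap between each mutant and its WT, while the ratios are higher in all Prepl knockouts and lower in all PWS-IC deleted libraries than in their WT.

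Whether a member responded differently in the 2 models was tested as the difference of their log2 fold changes (PWS-IC deletion minus Prepl knockout) over all 16 libraries. By edgeR's quasi-likelihood test 0 of 47 members were called, where 0.778% of all 14392 genes tested were (0.292% higher and 0.486% lower), and 4 members (8.51%) had an unadjusted p under 0.05, against 11.7% of all genes. Uqcrfs1 had a difference of 0.39 ± 0.118 (adjusted p = 0.143, edgeR's quasi-likelihood test). DESeq2 called it (adjusted p = 0.0264), as did edgeR's quasi-likelihood test with sex as a term (0.0165). DESeq2 gave adjusted p-values for 4879 genes and called 195 of them, and the fit with sex called 235 of 14392. The main fit called 112 of 14392, so these adjusted p-values rest on unlike gene sets or call rates. Atp5g2 had a difference of -0.68 ± 0.236 (adjusted p = 0.215, edgeR's quasi-likelihood test), which was called without PWS-IC WT replicate 1, at -0.85 (0.0364). Cox8a had a difference of -0.28 ± 0.123 and Cox6a1 of -0.23 ± 0.1001. For Atp5k the difference was 0.20 ± 0.135 with a 95% interval of -0.08 to 0.47, so its call in the PWS-IC deletion alone does not separate the models.

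The largest number of calls came from setting the WT groups of the 2 models side by side. Relative to the Prepl WT, 16 members were higher and 1 was lower in the PWS-IC WT. That was 17 of 47, or 36.2%, by edgeR's quasi-likelihood test, where 24.4% of all 14392 genes tested were called, 12.3% higher and 12.1% lower. Members at an unadjusted p under 0.05 made up 48.9% against 36% of all genes. For 14 members (29.8%) the groups did not overlap, against 24.3% of all genes. The median over the members was 0.16, beside -0.00 over all genes, and 35 of 47 lay above 0.

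The higher members came from all 4 complexes. In complex II they were Sdhb, Sdhc and Sdhd, at 0.26 ± 0.0863, 0.47 ± 0.104 and 0.42 ± 0.154. In complex III they were Uqcrh at 0.60 ± 0.0755, the small subunit Uqcr10 at 0.33 ± 0.0793, the ubiquinone-binding Uqcrq at 0.27 ± 0.0817 and the core protein Uqcrc2 at 0.24 ± 0.0870. In complex IV they were Cox7a2 at 0.57 ± 0.0868, Cox5a at 0.32 ± 0.0805 and Cox6c at 0.30 ± 0.0812. In complex V they were Atp5h, Atp5k, Atp5g2, Atp5j2, Atp5g3 and Atp5e, of which Atp5k was at 0.60 ± 0.0956 and the epsilon subunit Atp5e at 0.31 ± 0.0813. The 3 genes called in the PWS-IC deletion differed by 0.06 ± 0.0834 (Uqcrfs1), 0.60 ± 0.0956 (Atp5k) and 0.18 ± 0.0866 (Cox8a) between the WT groups.

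Uqcrh shows the size of this difference in single libraries: 262, 278, 276 and 296 CPM in the Prepl WT against 425, 382, 413 and 411 CPM in the PWS-IC WT. The lowest PWS-IC WT library was far above the highest Prepl WT library (Benjamini-Hochberg adjusted p = 8.98e-07 by edgeR's quasi-likelihood test). Atp5l, subunit g of the ATP synthase, was the lower one, at 20.1, 24.5, 24.8 and 24.6 CPM against 12.8, 11.2, 15.8 and 16.6 CPM. Its log2 difference was -0.69 ± 0.140 (Benjamini-Hochberg adjusted p = 0.000495 by edgeR's quasi-likelihood test). Atp5l has 12 near-identical copies in the annotation, and summed with those in the count tables it stood at 40.4 ± 2.78 and 30.7 ± 3.88 CPM, without overlap.

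Atp5h, which encodes subunit d of the peripheral stalk, had the largest difference among the members. It stood at 27.4, 31.9, 30.9 and 31.2 CPM in the Prepl WT and at 99.95, 98.6, 107 and 114 CPM in the PWS-IC WT. The mutants resembled their own WT, with 30.4, 29.0, 28.6 and 38.9 CPM in the Prepl knockouts and 120.1, 129, 113 and 136 CPM in the PWS-IC deleted mice. The log2 difference between the WT groups was 1.84 ± 0.0983 (Benjamini-Hochberg adjusted p = 1.45e-14 by edgeR's quasi-likelihood test). The gene lies on chromosome 11 (115415689 to 115419962, GRCm38), and its processed pseudogene Gm10250 on chromosome 15 matches its last 300 bases at 99.7%.

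The sequences are shown because a single base within those 300, 108 bases from the transcript end, separates the gene from the pseudogene. It is G15A in the stretch of 29 bases below, counted from 1 at its 5′ end with the base of Atp5h first, and stands in capitals.
Atp5h: aagagctgtgctgaGtttgtgtctggatc
Gm10250: aagagctgtgctgaAtttgtgtctggatc
Gm10250 was counted at 32.7 ± 3.52 and 30.2 ± 5.55 CPM in the Prepl WT and knockouts and at 21.9 ± 4.21 and 28.7 ± 2.54 CPM in the PWS-IC WT and deleted mice. The sum of both was 63.0 ± 5.37, 61.9 ± 9.91, 127 ± 10.5 and 153 ± 9.58 CPM, so both PWS-IC groups stayed above both Prepl groups, with a smaller ratio between the WT groups. How reads were divided between the 2 loci, and how many were left uncounted, was not tested. Of the 51 members 17 have an annotated copy of at least 95% identity over at least 100 of their last 300 bases. Called members between the WT groups numbered 8 of these 17 and 9 of the 30 tested members without a copy.

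**Figure D4:**
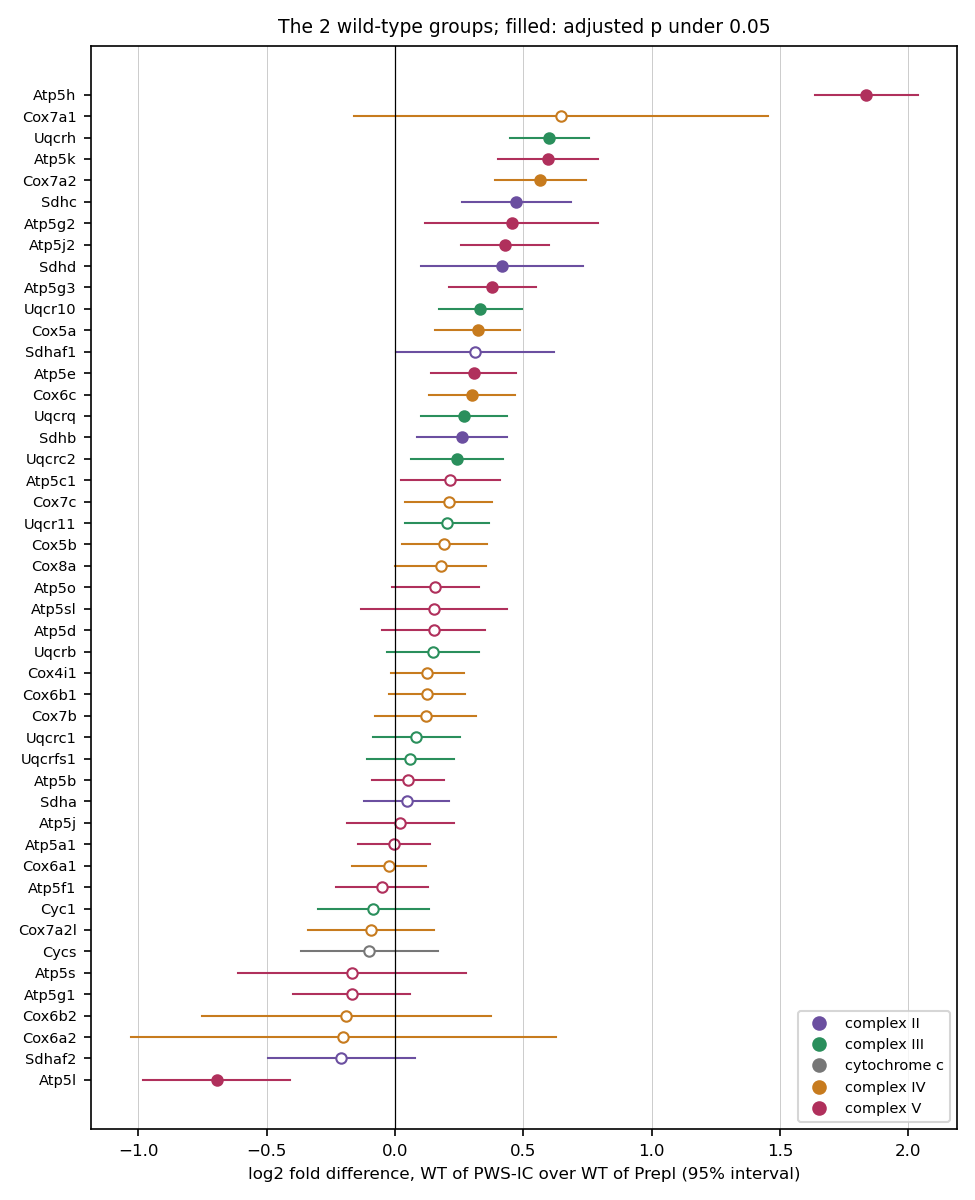
Log2 fold difference of each tested member between the WT of the PWS-IC model and the WT of the Prepl model, with 95% intervals, sorted by size and coloured by complex; filled points have an adjusted p under 0.05 by edgeR's quasi-likelihood test over 16 libraries. Most filled points lie above 0, Atp5h stands apart at 1.84 and Atp5l is the filled point below 0.

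Other measures moved with the WT groups. All 5 blood markers were higher in the PWS-IC WT (1796 to 3970 CPM summed, against 659.9 to 1145 CPM), as were 2 of 3 tested choroid plexus markers (1313 to 2083 against 836 to 1360.3 CPM). Of 2 tested oligodendrocyte markers 1 was lower (60.6 to 68.3 against 91.4 to 160.0 CPM summed), and Mog, another marker of these cells, was close to 0 throughout, with 6 reads in all 8 Prepl libraries and 0 in the PWS-IC libraries. Of the other marker lists, 1 of 4 neuronal (Syt1), 1 of 4 astrocyte (Gfap), 1 of 4 fast-spiking interneuron (Kcnc1) and 1 of 4 endothelial markers (Flt1) were lower. Among 7 markers of pericytes and smooth muscle 1 (Higd1b) was higher. In this comparison 24.4% of all 14392 genes tested were called, so these single calls were near or below that share. The part of the marked cell types in the differences of the respiratory genes was not tested. The WT groups belong to different models and differ in the share of reads outside genes, and the sources used here do not say whether they were prepared together, so model and preparation cannot be told apart. Both WT groups hold both sexes, and with sex as a term 16 members were called, all but Sdhd, while none of the 17 changed sign. Without Prepl WT replicate 1 there were 12 called members, where 2825 of all 14637 genes tested were called.

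Of the 17 calls 5 were lost in some fits with a single library left out, with adjusted p-values here from edgeR's quasi-likelihood test, and none of them changed sign. These 16-library fits share 1 estimate of the spread, so leaving out a knockout can also move an adjusted p. Sdhb lost its call without Prepl WT replicate 1 or 2 or PWS-IC WT replicate 1 or 4 (0.0554 to 0.116 at log2 differences of 0.19 to 0.26), and Uqcrc2 without the same libraries (0.0678 to 0.199 at 0.15 to 0.25). Uqcrq lost it without Prepl WT replicate 1 or PWS-IC WT replicate 4 (0.0723 at 0.21 and 0.0507 at 0.25). Sdhd lost it without Prepl WT replicate 1, 2 or 3, Prepl knockout replicate 2 or 3, or PWS-IC WT replicate 1 or 2 (0.0504 to 0.148 at 0.34 to 0.43, and 0.42 without either knockout). Atp5g2 lost it without Prepl WT replicate 1, 2 or 3, Prepl knockout replicate 4, or PWS-IC WT replicate 2, 3 or 4 (0.0520 to 0.156 at 0.35 to 0.47, and 0.45 without the knockout). The other 12 stayed called in each of these fits with 1 library fewer.

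A list of assembly factors and other proteins that act on complexes III to V or their mRNAs, none of them members, was counted for comparison. Of 36 listed genes 34 were tested, and edgeR's quasi-likelihood test called 0 in either mutant. Over all genes tested 0.262% (Prepl knockout) and 4.52% (PWS-IC deletion) were called. In each mutant 2 of the 34 had an unadjusted p under 0.05, against 9.43% and 18.2% of all genes. The medians were -0.02 (Prepl knockout) and 0.03 (PWS-IC deletion). Between the WT groups 4 of the 34 were higher and 5 lower in the PWS-IC WT. That is near the share over all 14392 genes tested, of which 12.3% were higher and 12.1% lower. The lower genes of this list included Lrpprc, which stabilizes mitochondrial mRNAs, at -1.36 ± 0.106, and Cox15, needed to make the heme of complex IV, at -1.16 ± 0.174.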

How the data were processed

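RNA from 16 mouse brain samples (4 groups of 4) was sequenced as QuantSeq 3′ poly(A) libraries, per the labels' protocols. The authors deposited counts, as whole numbers of reads for every gene symbol in each library. HISAT2, HTSeq and mm10 are named in the submitters' processing notes. Versions, annotation and strand setting are not stated there, so reads of overlapping genes on opposite strands cannot be told apart. The 5 totals that name no gene stayed out of library sizes and tests, and 38.1% to 46.4% of tabled reads lay in genes.

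Groups came from the sample titles. The counts were tested with edgeR 4.0.16 under R 4.3.3: filterByExpr (minimum count 10, minimum total 15), TMM, quasi-likelihood F-test, Benjamini-Hochberg adjustment over all genes tested, threshold 0.05. A model's 8 libraries were fitted alone, and the difference between models and between wild types on all 16. Standard errors were taken as the absolute log2 fold change over the root of F. CPM were computed from the counts. Library shares were compared with exact permutation tests. Fits were tested on simulated counts. Replicates differed by more than sampling noise (lowest chi-square per degree of freedom 2.43), so none was merged.

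Alternatives were RLE factors, no filter, DESeq2 1.42.0, limma 3.58.1 voom, a replicate block, sex (from Xist and Y-linked genes), the share of reads outside genes, 1 fit of 16 libraries, and leaving out each library. The 16-library fit with a sex term was chosen after seeing the data. Copies were found by BLAST 2.17.0 of the last 300 bases of GENCODE M21 transcripts against all transcripts. Coordinates are GENCODE M21 (49 members) or RefSeq (2 members), both GRCm38, and promoters are RefSeq's. The members and lists were chosen with earlier results of these data known. Named with all libraries were members called in either model, then members with unadjusted p under 0.05, the most abundant member per complex, the restricted isoforms, Cycs, Cyc1 and the succinate dehydrogenase subunits. Atp5h, Atp5l, Atp5a1 and the pseudogenes were chosen after their values were seen.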

Additional observations from a re-analysis of the deposited data

Results flagged for a closer look

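In 17 of 197 groups of 4 libraries tested, the highest or lowest library stood apart from the other 3 by a gap past Dixon's 95% critical value, which chance gives in about 1 in 20 groups. The groups are not independent, since a library that is high or low in many members counts for each. PWS-IC deleted replicate 2, the library with the highest member sum, was the high one for Uqcrq (339 CPM), Cox7b (384 CPM), Atp5g1 (31.9 CPM), Atp5j2 (287 CPM) and Cox4i2 (0.912 CPM, the other 3 at 0). Prepl WT replicate 1, with the lowest sum, was the low one for Sdhc (78.7 CPM), Atp5f1 (216 CPM) and Atp5l (20.1 CPM).

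The other 9 groups involved several libraries. Sdhd was low in Prepl knockout replicate 1 (24.2 CPM against 43.3 to 46.9 CPM) and in PWS-IC deleted replicate 4 (40.03 CPM against 60.4 to 62.1 CPM). Uqcrh was high in Prepl knockout replicate 1 (297 CPM) and Cox6a1 in Prepl knockout replicate 4 (584 CPM). Cox5b (112.5 CPM) and Atp5g3 (714 CPM) were low in Prepl knockout replicate 2. Sdhaf1 was low in PWS-IC deleted replicate 1 (18.0 CPM), and Uqcrq was high in PWS-IC WT replicate 4 (324 CPM against 302 CPM in the other 3). Cox8b had reads in PWS-IC WT replicate 1 alone (2.73 CPM).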

How the results depend on the processing

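The count of 0 called members in the Prepl knockout held under every alternative run. In the PWS-IC deletion the 3 calls became 5 without the filter on low counts, 5 with sex as a term, 0 with a covariate for reads outside genes, and 0 to 2 when single libraries were left out. Calls over all genes moved as well, from 616 of 13636 to 945 of 24785, 1119 of 13636, 4 of 13636 and 362 to 653 in the same order. The member counts thus did not move alone. With the covariate for reads outside genes Cox8a reversed to 0.41 (adjusted p = 0.999, edgeR). RLE factors and limma voom gave 3, and DESeq2 and the 16-library fits 4. For the difference between models the 0 calls became 1 with DESeq2, 1 with sex as a term, and 0 to 1 when single libraries were left out. Over all genes 112 calls of 14392 became 195 of 4879, 235 of 14392 and 67 to 134 in the same order. The 17 member calls between wild types stayed at 12 to 17, and the calls over all genes at 2772 to 3604. The cause of these shifts was not tested. The labels give no pairing by replicate number. The deviations of same-numbered libraries correlated at -0.07 to 0.05 in the Prepl model and -0.05 to 0.18 in the PWS-IC model. In both PWS-IC groups replicates 1 and 2 were male and 3 and 4 female. With 4 libraries per group these correlations can neither show nor exclude a pairing. The replicate block gave 0 called members in the Prepl model and 4 in the PWS-IC model, adding Atp5g1. In that PWS-IC fit 989 of all 13636 genes tested were called. With mitochondrially encoded genes out of the denominator, or without the top member, the summed levels themselves moved, while the relative difference between a mutant and its WT moved by less than the combined SD of both groups. These small differences turned sign without mitochondrially encoded genes for complexes II (605.02 CPM in the WT, 612.6 in the knockouts) and IV (3819 and 3830.1 CPM) in the Prepl model and complex V (5399 and 5343 CPM) in the PWS-IC model, and without Atp5g3 for the sum of all members in the PWS-IC model. Cytochrome c has 1 member, so leaving out the top member gave no value. Depth limits the restricted isoforms most: 4 members in one model and 5 in the other had too few reads to test.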

Other observations

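Pseudogenes that resemble members at their 3′ ends were tested beside them. Gm10039, which resembles Atp5g1, ranged from 8.38 to 14.1 CPM in the Prepl WT and from 11.5 to 34.9 CPM in the knockouts, with a log2 fold change of 1.14 ± 0.269 (Benjamini-Hochberg adjusted p = 0.0795 by edgeR's quasi-likelihood test). Atp5g1 itself was at -0.12 ± 0.104 in that comparison. Gm12338, identical to Cox7c over 181 bases, ranged from 34.3 to 36.7 CPM in the PWS-IC WT and from 42.4 to 48.3 CPM in the deleted mice, a log2 fold change of 0.36 ± 0.106 (Benjamini-Hochberg adjusted p = 0.0611 by edgeR's quasi-likelihood test), while Cox7c was at 0.01 ± 0.0916. Neither pseudogene passed the test within its model. The difference between the models was called for Gm10039, at -1.67 ± 0.406 (PWS-IC deletion minus Prepl knockout, adjusted p = 0.0414 by edgeR's quasi-likelihood test), and not for Atp5g1, at -0.30 ± 0.163.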
